A study of Mus musculus with 8 samples.

Results

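The GIMAP genes encode GTPases of the immunity-associated protein family, and the 8 members described here are Gimap1, Gimap3, Gimap4, Gimap5, Gimap6, Gimap7, Gimap8 and Gimap9. They were chosen by gene symbol, as 8 of the 52636 rows of the deposited RNA-seq table. A ninth row with a name of this kind, Gimap1os, holds an RNA antisense to Gimap1 and is not a member. RNA was sequenced from splenic Tregs (CD4+ Foxp3+) and Tconvs (CD4+ Foxp3-) to compare mice with and without a CD70 transgene, with 2 libraries in each of 4 groups and 200000 sorted cells per sample. The CD70Tg groups came from CD11c-Cd70tg;CD27+/- Foxp3 reporter mice, in which CD70, the ligand of CD27, is expressed from a transgene with the CD11c promoter, mainly in dendritic cells. The control groups came from CD27+/- mice without the transgene, so that mice of all 4 groups carried a single functional allele of Cd27. The GEO labels call the controls WT and the columns of the table call them KO, whereas the study's methods give CD27+/-. The age of the mice was 6 to 8 weeks, and the reporter line carries eGFP in Foxp3, which the sort read. The methods name C57BL/6 for recipients of the CD27-deficient and CD70 transgenic lines in cell transfers, and no strain for the mice sequenced. Other cell types were depleted with antibodies before the sort, anti-CD25 being used for Tconvs only. Nothing in the sources says whether the libraries of a group came from separate mice, so that the p-values measure the spread between these libraries, which may be technical.

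GIMAP proteins carry a GTP-binding domain of the AIG1 type, and most of them are anchored to or associated with the membranes of organelles such as the endoplasmic reticulum, the Golgi, mitochondria, lysosomes or lipid droplets. They are expressed mainly in lymphocytes and are known for their part in the survival and the maintenance of T cells. Loss of Gimap5 in rats or mice leads to lymphopenia of peripheral T cells, loss of Gimap1 depletes mature T and B cells, and several members bind proteins of the BCL2 family or of the autophagy machinery.

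In mouse, the 8 genes lie side by side over 123.618 kb, at chr6:48647234-48770851 of mm10 (GENCODE M21). Their order is Gimap8, Gimap9, Gimap4, Gimap6, Gimap7, Gimap1, Gimap5 and Gimap3, all on the forward strand except Gimap6 and Gimap3. Since the members did not move together, the sequences before the starts of 3 of them are given here: Gimap7 and Gimap4, whose transcripts were higher in CD70Tg Tregs, and Gimap3, which was higher in Tregs than in Tconvs but did not pass the test for CD70Tg. All 8 members were found among the RefSeq promoters (GRCm38.p6, the same assembly as mm10), with 9 promoters in all since Gimap8 has 2. The runs are printed 5′ to 3′ on the strand of the gene and end before the first exon that GENCODE places there. They lie at chr6:48718371-48718606 (forward strand) for Gimap7, at chr6:48684328-48684548 (forward strand) for Gimap4 and at chr6:48770852-48771101 (reverse strand) for Gimap3. Capitals mark matches to an ETS core (AGGAAG) or, on the opposite strand, to a RUNX site (TGTGGT).
Gimap7: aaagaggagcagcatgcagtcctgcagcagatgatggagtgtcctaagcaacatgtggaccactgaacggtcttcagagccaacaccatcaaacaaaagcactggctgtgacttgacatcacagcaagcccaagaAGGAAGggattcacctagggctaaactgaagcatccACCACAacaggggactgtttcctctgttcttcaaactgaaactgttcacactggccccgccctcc
Gimap4: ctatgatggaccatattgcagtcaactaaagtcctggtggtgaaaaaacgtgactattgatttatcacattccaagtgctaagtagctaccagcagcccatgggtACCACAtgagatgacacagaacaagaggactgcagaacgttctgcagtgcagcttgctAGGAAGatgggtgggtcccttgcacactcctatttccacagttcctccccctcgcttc
Gimap3: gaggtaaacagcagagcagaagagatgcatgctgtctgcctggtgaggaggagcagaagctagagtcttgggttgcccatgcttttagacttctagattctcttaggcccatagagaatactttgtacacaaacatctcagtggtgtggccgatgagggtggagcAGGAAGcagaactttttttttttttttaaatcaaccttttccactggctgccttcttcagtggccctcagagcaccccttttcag

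Motifs were searched on both strands of the 250 bases before each RefSeq start. The ETS core was found in 7 of the 9 GIMAP promoters, that is at all members but Gimap6 and in 1 of the 2 promoters of Gimap8, and in 29.5% of all 32851 promoters. It begins 115 bases before the start at Gimap7 and 85 bases before it at Gimap3, and Gimap4 has matches at 87 and 33 bases, of which the second runs past the printed end. The RUNX site was found at Gimap1, Gimap4 and Gimap7 (3 of 9, against 14% of all promoters), at 95, 145 and 79 bases. No GIMAP promoter held the T-box half-site (AGGTGT, in 11.8% of all), which Eomes and T-bet bind, the ISRE core (2.98%) or the AP-1 site (TGANTCA, 6.75%), which says only that these letters are not in these windows. A GAS motif (TTCNNNGAA, 7.02% of all) was found at Gimap6 and in 1 promoter of Gimap8, and TATAAA (12.4% of all) at Gimap6. In that promoter of Gimap8 the GAS match overlaps the ETS core. These matches are a description of the sequence, and binding was not measured.

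The deposited values are HTSeq counts that the authors brought to a library size of 20 M and rounded up, and are called scaled reads here. The step between the low values of a library gave the number of reads on genes behind it, between 1.91 M in a CD70Tg Treg library and 33.3 M in a CD70Tg Tconv library, with 3.68 to 4.57 M in the other Treg libraries. At these depths every member was measured well above the floor, with at least 273 reads behind each value. The sorted subsets carried their markers: 4 of 4 Treg markers, Foxp3, Il2ra, Ikzf2 and Ctla4, were higher in Tregs in control mice, where their summed level was 62341 to 63193 scaled reads, against 2695 to 3346 in Tconvs. All 8 members were among the 12816 genes with at least 60 scaled reads in at least 2 libraries and were tested with limma on log2(value + 5), a gene passing at an adjusted p under 0.05. Fold changes are on this scale, and adjusted p-values are over all 12816 genes within a comparison. Libraries are numbered 1 and 2 in the order of the columns and have no order of their own.

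The GIMAP genes were abundant in all 4 groups. Per kb of merged exon, which allows genes to be compared, the members stood above 79.5% to 99.5% of the tested genes that have a length. In control Tconvs Gimap4 was at 8596 ± 160 scaled reads per kb (SD, n = 2) and Gimap3 at 7845 ± 520, followed by Gimap6 at 4627 ± 12.5, Gimap1 at 2392 ± 194, Gimap9 at 1854 ± 145, Gimap8 at 1416 ± 78.7, Gimap7 at 966 ± 56.0 and Gimap5 at 504 ± 57.1. No neighbours in this order overlapped between the libraries. In control Tregs the order per kb was Gimap3 (10792 ± 296), Gimap4 (8683 ± 242), Gimap6 (3829 ± 20.02), Gimap1 (2534 ± 150), Gimap8 (2239 ± 128), Gimap7 (1972 ± 90.3), Gimap9 (1836 ± 146) and Gimap5 (804 ± 40.2), and Gimap7 and Gimap9 overlapped. Gimap7 was next to last in control Tconvs, and in CD70Tg Tregs it came next after Gimap6, at 3351 ± 385 per kb, ahead of Gimap1 at 2725 ± 253. In CD70Tg Tconvs the order began with Gimap4 (9987 ± 375), Gimap3 (8495 ± 342), Gimap6 (5090 ± 79.7) and Gimap1 (2696 ± 340), and ended with Gimap8 (1589 ± 127) and Gimap5 (565 ± 151). Gimap7 (2089 ± 373) and Gimap9 (2070 ± 123), which stood between these, were within the spread of each other. In CD70Tg Tregs Gimap4 (12010 ± 905) and Gimap3 (11631 ± 99.9) were within the spread of each other, and below Gimap1 came Gimap8 (2513 ± 80.6), Gimap9 (1794 ± 80.5) and Gimap5 (734 ± 5.62), the libraries of Gimap1 and Gimap8 overlapping. The place of Gimap1 depends on the length used, since 36.0% of its exon bases are shared with Gimap1os on the other strand: over its unshared bases it was at 3961 per kb in control Tregs, where it overlapped with Gimap6, and at 4259 in CD70Tg Tregs, above Gimap7 at 3472. With the longest transcript in place of merged exons, levels per kb were 1.02 to 1.904 times as high, and Gimap3 came before Gimap4 in all 4 groups, by little in CD70Tg Tconvs (10205 against 10170). With that length Gimap7 (6139) stood above Gimap1 (5188) and Gimap6 (4957) in CD70Tg Tregs, and it was also above Gimap8 in control Tconvs (1770 against 1659), with overlap between the libraries.

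**Figure D1:**
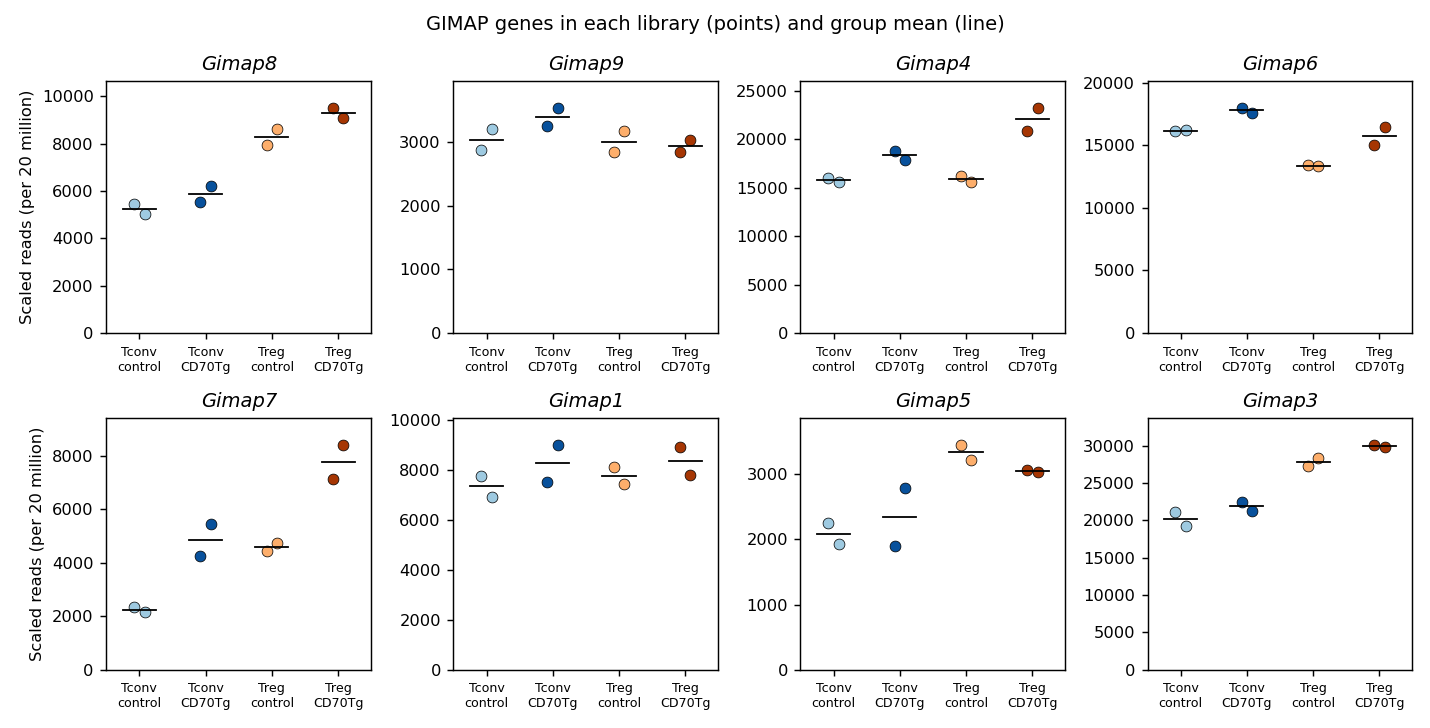
Scaled reads of the 8 GIMAP genes in each library, one panel per gene in their order on the chromosome, with a point for each library and a line at the mean of the 2 libraries of a group. Gimap7 is higher in both CD70Tg libraries than in both control libraries in each subset, and Gimap3, Gimap5, Gimap7 and Gimap8 are higher in control Tregs than in control Tconvs.

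Gimap7, whose protein pairs with other family members and stimulates their hydrolysis of GTP, was higher in CD70Tg mice in both subsets (chr6:48718621-48724636, forward strand). In Tconvs it was at 2338 and 2154 scaled reads in the control libraries and at 4244 and 5471 in the CD70Tg libraries. In Tregs it was at 4436 and 4733 in the control libraries and at 7158 and 8423 in the CD70Tg libraries. The groups did not overlap in either subset, and the CD70Tg Tconvs lay on either side of the control Tregs. The increase was 2.14-fold in Tconvs (95% interval 1.77 to 2.60, log2 1.10 ± 0.13 SE, limma adjusted p = 2.7e-05) and 1.69-fold in Tregs (1.40 to 2.06, log2 0.76 ± 0.13 SE, limma adjusted p = 0.0020). These increases were larger than those of 95.6% and 94.5% of the tested genes, respectively. The response in Tregs minus that in Tconvs was -0.34 on the log2 scale (95% interval -0.74 to 0.05, limma adjusted p = 0.561), so that a difference between the subsets was not shown. With no minimum value, the adjusted p in Tregs was 0.0547, and over all alternatives it lay between 3.9e-05 and that value. A protein-coding gene on the same strand that runs from the start of Gimap7 over Gimap1 into Gimap5, Gm28053, shares 3.48% of the exon bases of Gimap7. Gm28053 was at 2990 and 3026 scaled reads in control and at 3375 and 3535 in CD70Tg Tregs, and did not pass the test in Tregs (log2 0.20, limma adjusted p = 0.357) or in Tconvs (log2 0.28, limma adjusted p = 0.200), where it passed without CD70Tg Tconv library 1 (0.0460). How the authors treated reads that fall on several genes was not given in the sources used here.

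Gimap4, which binds Bax and is known to accelerate the death of T cells, was higher in CD70Tg Tregs (chr6:48684549-48692060, forward strand). It was at 16265 and 15636 scaled reads in control and at 20887 and 23239 in CD70Tg Tregs, and the groups did not overlap. The increase was 1.38-fold (95% interval 1.16 to 1.64, log2 0.47 ± 0.12 SE, limma adjusted p = 0.0246). This call was lost when any 1 of the 4 Treg libraries was left out (limma adjusted p = 0.079 to 0.199), with median-of-ratios factors (0.0541) and with no minimum value (0.0655), while the log2 change stayed between 0.39 and 0.54 in all alternatives. In Tconvs Gimap4 was at 15999 and 15583 in control and at 18834 and 17860 in CD70Tg mice, which also do not overlap, but the change of log2 0.22 ± 0.12 SE did not pass (limma adjusted p = 0.361). The difference between the subsets did not pass either (log2 0.25, 95% interval -0.11 to 0.61, limma adjusted p = 0.664). Gimap4 shares no exon bases with another gene, nor any run of 50 bases with another transcript.

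Of the 8 members, 2 passed as higher in CD70Tg Tregs (Gimap7 and Gimap4), against a background of 3.94% of the 12816 tested genes, and 1 in CD70Tg Tconvs (Gimap7), against 6.82%. None passed as lower in either subset, where 3.46% of genes in Tregs and 1.99% in Tconvs did, and limma at an unadjusted p under 0.05 and limma-voom gave 0 members as well. The median log2 change of the members was 0.14 in Tregs and 0.16 in Tconvs, against -0.05 and 0.01 over all tested genes. With a log2 change over 1 required in addition, 0 members passed in Tregs (background 2.53% higher) and 1 in Tconvs, Gimap7 (background 4.07% higher). Both CD70Tg libraries lay above both control libraries for 5 of 8 members in Tregs (Gimap3, Gimap4, Gimap6, Gimap7 and Gimap8) and for 6 of 8 in Tconvs (these and Gimap9), while 22.5% and 23.7% of all tested genes did so. They lay below them for 1 member in Tregs, Gimap5, and for 0 in Tconvs, with 31.2% and 21.4% of all tested genes. No member passed for the difference between the responses of the subsets, with a background of 0.195% higher and 0.827% lower, and limma at an unadjusted p under 0.05 and limma-voom likewise gave 0 members. In such bulk libraries, a change in the share of cells that express a gene and a change in RNA per cell cannot be told apart.

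**Figure D2:**
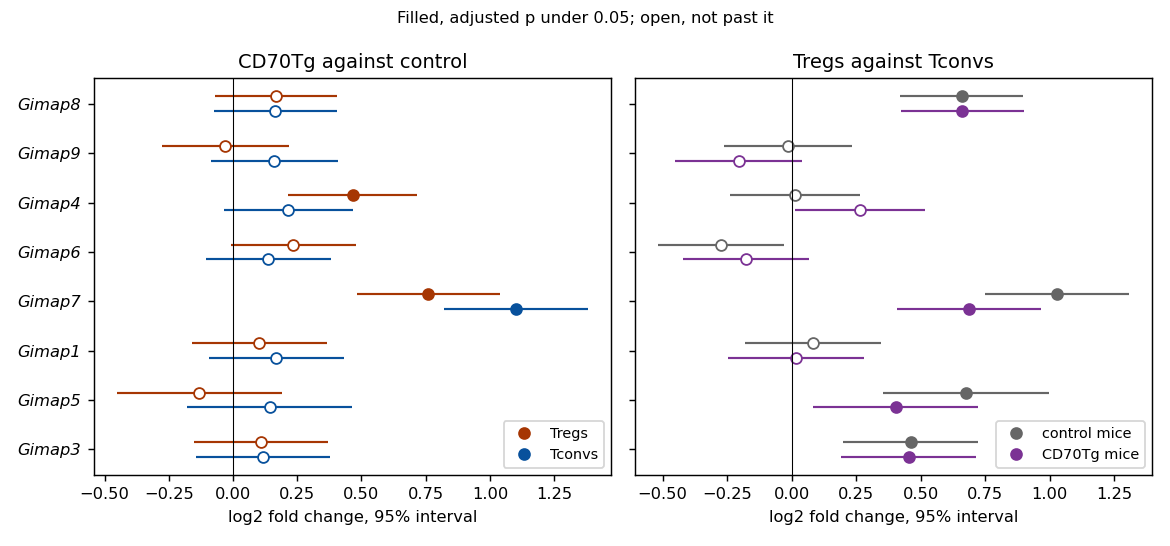
Log2 fold changes of the GIMAP genes with their 95% intervals, for CD70Tg against control in Tregs and Tconvs (left) and for Tregs against Tconvs in control and CD70Tg mice (right), with n = 2 libraries per group. Filled points passed at an adjusted p under 0.05: Gimap7 passed in all 4 comparisons, Gimap4 in Tregs for CD70Tg, and Gimap3, Gimap5 and Gimap8 in both comparisons of the subsets.

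The other members changed less with CD70Tg than the tests could call. Gimap6, which binds a GABARAP protein and takes part in autophagy, was at 13436 and 13337 scaled reads in control and at 15036 and 16480 in CD70Tg Tregs (log2 0.23, 95% interval -0.01 to 0.48, limma adjusted p = 0.254). In Tconvs it was at 16145 and 16207 in control and at 17990 and 17596 in CD70Tg mice (log2 0.14, 95% interval -0.11 to 0.38, limma adjusted p = 0.604). The CD70Tg libraries were the higher ones in both subsets, without overlap, and both changes missed the threshold.

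Gimap3 and Gimap5 are close relatives that bind proteins of the BCL2 family, and loss of Gimap5 leads to lymphopenia of peripheral T cells. Gimap3 was at 27270 and 28350 scaled reads in control and at 30154 and 29790 in CD70Tg Tregs (log2 0.11, 95% interval -0.15 to 0.37), and at 21164 and 19270 against 22514 and 21267 in Tconvs (log2 0.12, -0.15 to 0.38). Gimap5 was at 3455 and 3219 in control and at 3062 and 3029 in CD70Tg Tregs (log2 -0.13, 95% interval -0.45 to 0.19). It was thus the one member with both CD70Tg Treg libraries below both controls, and the change did not pass (limma adjusted p = 0.679). In Tconvs Gimap5 was at 2259 and 1924 in control and at 1902 and 2787 in CD70Tg mice, which overlap (log2 0.14, -0.18 to 0.46). Gimap3 shares 7.52% of its runs of 50 bases with Gimap5, and Gimap5 shares 4.53% of its own with Gimap3, so that a small part of their reads could be ambiguous.

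Gimap8, the longest family member, with several GTPase domains in a row, was at 7949 and 8617 scaled reads in control and at 9508 and 9086 in CD70Tg Tregs (log2 0.17, 95% interval -0.07 to 0.41). In Tconvs it was at 5447 and 5035 in control and at 5547 and 6214 in CD70Tg mice (log2 0.16, -0.07 to 0.40). The CD70Tg libraries were higher in each subset, by less than the test could call.

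Gimap1, a protein of the Golgi and endoplasmic reticulum that mature lymphocytes need, was at 8114 and 7461 scaled reads in control and at 8923 and 7824 in CD70Tg Tregs, which overlap (log2 0.10, 95% interval -0.16 to 0.37). In Tconvs it was at 7774 and 6929 in control and at 7546 and 9022 in CD70Tg mice, which overlap too (log2 0.17, -0.10 to 0.43). Its values are uncertain because of the bases shared with Gimap1os, since it was not stated whether the counting used the strand. Gimap1os was at 2441 and 2610 in control and 2989 and 2594 in CD70Tg Tregs, and did not pass in either subset (limma adjusted p = 0.571 and 0.514).

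Gimap9, a less studied member, had the smallest change of the 8 in Tregs. It was at 2844 and 3184 scaled reads in control and at 2853 and 3040 in CD70Tg Tregs (log2 -0.03, 95% interval -0.28 to 0.22), and at 2875 and 3212 against 3256 and 3541 in Tconvs (log2 0.16, -0.09 to 0.41). Both CD70Tg Treg libraries lay between the control Treg libraries, and in Tconvs both CD70Tg libraries were above both controls, by less than the test could call.

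The subsets were then compared with each other, where far more of all genes passed than with CD70Tg. In control mice, 4 of 8 members were higher in Tregs than in Tconvs, where 27.5% of tested genes passed as higher, and 0 were lower, where 18.4% did. At an unadjusted p under 0.05 limma gave 1 lower member, Gimap6, and limma-voom called it as well. Gimap7 had the largest difference of the members, 2.04-fold (95% interval 1.68 to 2.48, limma adjusted p = 1.2e-05). Gimap5 was 1.60-fold higher (1.28 to 2.00, limma adjusted p = 0.0018) and Gimap8 1.58-fold higher (1.34 to 1.86, limma adjusted p = 1.9e-04). Gimap3 was 1.38-fold higher in Tregs (1.15 to 1.65, limma adjusted p = 0.0063), a call lost with median-of-ratios factors (adjusted p = 0.0610) and without control library 2 of the Tconvs (0.0559) or of the Tregs (0.0642). Gimap6 went the other way, with both Treg libraries below both Tconv libraries (log2 -0.27, 95% interval -0.52 to -0.03, limma adjusted p = 0.0626). It passed with limma-voom (0.0202) and without CD70Tg Tconv library 1 (0.0312) or 2 (0.0326). Gimap1, Gimap4 and Gimap9 differed by log2 0.08, 0.01 and -0.01, with intervals that reached no further than 0.35 in either direction. With a log2 change over 1 required as well, 1 member passed, Gimap7 (background 14.7% higher).

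In CD70Tg mice, 4 of 8 members passed as higher in Tregs (background 22.6%) and 0 as lower (background 20.1%; 0 with limma-voom, and 0 at an unadjusted p under 0.05). These were Gimap7 (1.61-fold, limma adjusted p = 6.3e-04), Gimap8 (1.58-fold, limma adjusted p = 2.3e-04), Gimap3 (1.37-fold, limma adjusted p = 0.0077) and Gimap5 (1.32-fold, limma adjusted p = 0.0416). The comparisons in control and in CD70Tg mice share no libraries. They were fitted together, however, with a shared estimate of the spread of each gene over all 8 libraries, so they are not independent tests. The value for Gimap5 rests on single libraries: its log2 difference of 0.40 was 0.13 (adjusted p = 0.468) without CD70Tg Tconv library 1 and 0.68 without CD70Tg Tconv library 2, and the call was lost in 7 of 15 alternatives. Without CD70Tg Treg library 1, which has the fewest reads, 2 members were called in place of 4, and Gimap3 was at an adjusted p of 0.0604. Gimap4 was higher by log2 0.26 in Tregs (95% interval 0.01 to 0.52, limma adjusted p = 0.0837), and passed with limma-voom (0.0261). With a log2 change over 1 required as well, 0 members passed, where 12.3% of genes did. In the comparison of the subsets, anti-CD25 depletion of the Tconvs and the sort by eGFP go with the subset and cannot be told apart from it. Depth goes with the subset too, at 1.91 to 4.57 M reads in the Treg and 6.94 to 33.3 M in the Tconv libraries.

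**Figure D3:**
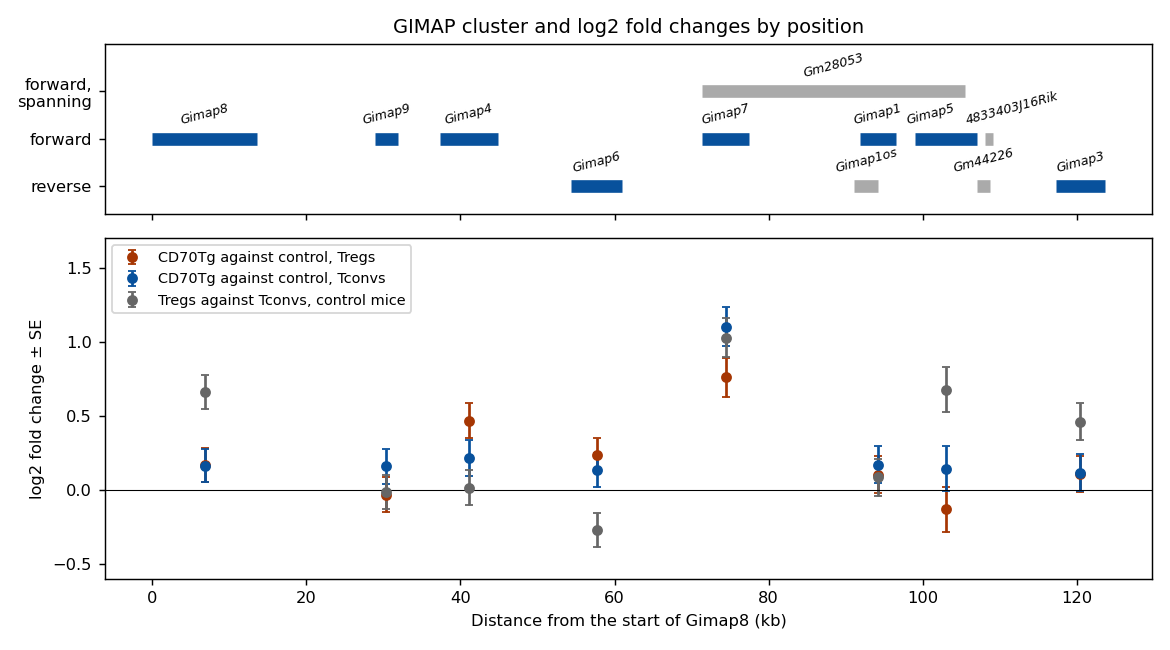
The GIMAP cluster drawn to scale, with the members in blue and the other tested genes inside it in grey, by strand (top), and log2 fold changes ± SE of the members at the middle of each gene (bottom), against the distance in kb from the start of Gimap8. Gimap7 stands above its neighbours on either side, Gimap6 and Gimap1, which lie between 0.10 and 0.23 for CD70Tg.

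Along the chromosome, the members that passed for CD70Tg in Tregs were not next to each other. Gimap7 lies between Gimap6, which had log2 changes with CD70Tg of 0.23 in Tregs and 0.14 in Tconvs, and Gimap1, with 0.10 and 0.17. Gimap4, the other member that passed in Tregs, lies on the far side of Gimap6. For Tregs against Tconvs in control mice, the values of the members in their order were 0.66, -0.01, 0.01, -0.27, 1.03, 0.08, 0.68 and 0.46 on the log2 scale, so that members near 0 stood between members that were higher, while Gimap5 and Gimap3, which both passed, are neighbours.

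The summed level of the 8 genes was 0.369% and 0.352% of the scaled reads of the control Tconv libraries and 0.409% and 0.418% in CD70Tg Tconvs. In Tregs it was 0.418% and 0.423% in control and 0.486% and 0.5004% in CD70Tg mice. The groups did not overlap in either subset, and CD70Tg Tconvs stood at or just below the control Tregs. Gimap7 made up 3.16% and 3.06% of the sum in control Tconvs and 5.19% and 6.53% in CD70Tg Tconvs, and 5.30% and 5.599% in control Tregs and 7.34% and 8.35% in CD70Tg Tregs. Gimap6 made up 21.8% and 23.0% of the sum in control Tconvs, and 16.04% and 15.8% in control Tregs. The share of Gimap7 was thus higher with CD70Tg in both subsets, and that of Gimap6 was lower in control Tregs than in control Tconvs. With CD70Tg the share of Gimap6 overlapped with that of the controls, at 22.0% and 21.0% in Tconvs and 15.4% and 16.3% in Tregs. Gimap3 had the largest share in each library, between 25.4% and 33.5%. Differences in shares were not tested. These shares are of reads and not of molecules, as longer transcripts give more reads.

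**Figure D4:**
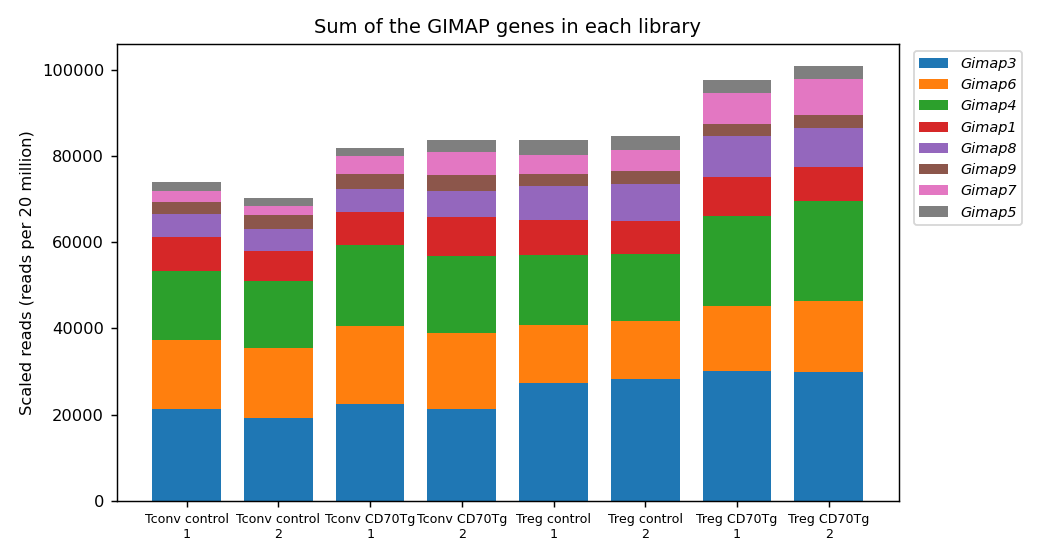
Sum of the scaled reads of the 8 GIMAP genes in each library, with the contribution of each gene stacked. The bars run from 70314 in a control Tconv library to 100911 in a CD70Tg Treg library, and Gimap3, Gimap4 and Gimap6 make up most of each.

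The members differed in how they varied over the 8 libraries. Gimap3 and Gimap8 were the most alike (Pearson r = 0.977), Gimap5 was closest to Gimap8 (0.875), Gimap4 was closest to Gimap7 (0.804), and Gimap5 and Gimap6 were the most opposed (-0.686). Gimap7 followed the mean of the 8 standardized profiles (0.985), which contains it, while Gimap6 and Gimap9 did not (0.011 and 0.040). Of the tested genes outside the family, those closest to this mean were Pglyrp1 (0.993), Mid1ip1 (0.990), Vars (0.990), Phf11a (0.987) and Lilrb4a (0.987). These are correlations over 8 libraries in 4 groups of 2, which share the groups and the subset, and are given as a description.

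Among 14 genes whose products are known to bind GIMAP proteins or to work in their pathways (the BCL2 family, the GABARAP and LC3 proteins of autophagy, and GSK3 with beta-catenin), 2 were lower and 0 higher in CD70Tg Tregs. Over all tested genes, 3.46% were lower and 3.94% higher there. Bcl2, which protects T cells from death, was at 3839 and 3359 scaled reads in control and at 1808 and 1865 in CD70Tg Tregs (log2 -0.97 ± 0.11 SE, limma adjusted p = 6.3e-05). In Tconvs it was at 2512 and 2480 in control and at 3492 and 3445 in CD70Tg mice (log2 0.47 ± 0.11 SE, limma adjusted p = 0.0123). Bcl2 thus fell in Tregs and rose in Tconvs, in both cases without overlap, and the call in Tconvs was lost with no minimum value (0.0639), with the Tconv libraries alone (0.0525) and without control Tconv library 2 (0.0659). Bcl2l11, which encodes the death-promoting protein Bim, was at 1689 and 1537 in control and at 1077 and 1104 in CD70Tg Tregs (log2 -0.56, limma adjusted p = 0.0154), a call lost in 6 of 15 alternatives, among them without any 1 of the 4 Treg libraries (adjusted p up to 0.201). In Tconvs 2 of the 14 genes were higher, Bcl2 and Gabarapl1, and 0 were lower, against 6.82% and 1.99% of all tested genes. Gabarapl1, an autophagy gene, was at 182 and 149 in control and at 225 and 385 in CD70Tg Tconvs (log2 0.82, limma adjusted p = 0.0399), and its call was lost in 8 of 15 alternatives, with a log2 change of 0.44 without CD70Tg Tconv library 2. At an unadjusted p under 0.05, limma gave 3 of the 14 as lower and 0 as higher in Tregs, and 2 as higher and 0 as lower in Tconvs, and limma-voom called 1 lower and 0 higher in Tregs and 2 higher and 0 lower in Tconvs. The medians over the list were 0.07 in both subsets, against -0.05 and 0.01 over all tested genes.

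Genes of the T cell state moved in the same libraries. Over all tested genes, 3.94% were higher and 3.46% lower in CD70Tg Tregs, and 6.82% and 1.99% in CD70Tg Tconvs. Of 16 genes of naive and quiescent T cells, 5 were lower in CD70Tg Tregs and 5 in CD70Tg Tconvs, with 0 higher in either, and medians of -0.33 and -0.40. Of 16 genes of activated and effector T cells, 9 were higher and 1 (Cd44) lower in CD70Tg Tregs and 12 were higher and 0 lower in CD70Tg Tconvs, with medians of 1.10 and 2.09. With limma-voom, the naive genes counted 2 lower and 0 higher in Tregs and 9 lower and 0 higher in Tconvs, and the effector genes 5 higher and 0 lower in Tregs and 13 higher and 0 lower in Tconvs. At an unadjusted p under 0.05, limma gave 8 naive genes lower and 1 higher in Tregs and 9 lower and 0 higher in Tconvs, and 11 effector genes higher and 2 lower in Tregs and 15 higher and 0 lower in Tconvs. Several genes of the effector list, such as Ifng, Nkg7, Cxcr3 and Tbx21, are ones that the paper reports as raised in these same data. Their counts are therefore a description and no independent result. Gimap7 and Gimap4 were measured in populations whose activation genes differed, and the part of this in their levels was not tested. The 4 T cell markers (Cd3e, Cd3d, Cd3g and Cd4) did not pass for CD70Tg in either subset, with limma, at an unadjusted p under 0.05 or with limma-voom, and summed to 47363 to 75791 scaled reads over the libraries.

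The same lists also differed between the subsets. Over all tested genes, 27.5% were higher and 18.4% lower in control Tregs than in control Tconvs. In CD70Tg mice, 22.6% were higher and 20.1% lower in Tregs. In control mice 4 of 4 T cell markers were lower in Tregs than in Tconvs, and in CD70Tg mice 2 of 4. Of the 16 naive genes, 12 were lower and 0 higher in control Tregs, and 11 lower and 1 higher in CD70Tg Tregs. Of the 16 effector genes, 10 were higher and 4 lower in control Tregs, and 6 higher and 6 lower in CD70Tg Tregs. Myeloid markers were higher in Tregs for 3 of 6 genes in control and 4 of 6 in CD70Tg mice, and 3 of 3 erythroid markers were higher in CD70Tg Tregs than in CD70Tg Tconvs, with 0 in control mice, where limma gave 0 at an unadjusted p under 0.05 and limma-voom 0. Of the CD8 genes, 1 of 2 was lower in control Tregs and 2 of 2 in CD70Tg Tregs, the tested NK gene was lower in Tregs in both, and the tested B cell gene, Cd79a, was higher in CD70Tg Tregs (log2 1.92). Their part in the differences of Gimap3, Gimap5, Gimap7 and Gimap8 between the subsets was not tested.

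Markers of other cells summed to less than the T cell markers, but some moved with the groups. The myeloid sum in Tregs was near the level of Gimap9 there (2844 to 3184 scaled reads). Over all tested genes, 3.94% were higher and 3.46% lower in CD70Tg Tregs, and 6.82% and 1.99% in CD70Tg Tconvs. Erythroid markers summed to 419 and 1144 scaled reads in control and to 2624 and 1655 in CD70Tg Tregs (2 of 3 genes higher), and to 605 to 1067 in Tconvs. Cd8a was higher in CD70Tg mice in both subsets, and the 2 CD8 genes summed to 681 to 720 in control against 1563 to 1590 in CD70Tg Tconvs and to 317 to 417 against 631 to 660 in Tregs. Myeloid markers summed to 2818 to 3023 in Tregs, with 1 of 6 higher and 1 lower in CD70Tg mice, and to 1233 to 1686 in Tconvs, with 2 higher and 1 lower. NK markers, of which 1 of 4 was tested and was lower in CD70Tg mice, summed to 0 to 64 in Tregs and to 81 to 444 in Tconvs. B cell markers summed to 127 and 84 in control and to 26 and 37 in CD70Tg Tconvs, and to 89 and 129 in control and to 201 and 170 in CD70Tg Tregs. They were thus lower in CD70Tg Tconvs and higher in CD70Tg Tregs, without overlap, and the 1 gene of 4 that was tested, Cd79a, did not pass in either subset. Endothelial markers summed to 139 and 140 in control and to 154 and 149 in CD70Tg Tconvs, and to 55 and 76 in control and to 222 and 99 in CD70Tg Tregs, without overlap. With limma-voom, 0 erythroid, 0 myeloid and 0 NK genes were called for CD70Tg in Tregs and 1 of 2 CD8 genes was called higher, and in Tconvs 2 myeloid genes were called higher, 1 myeloid gene lower, 1 NK gene lower, 1 B cell gene lower and 2 of 2 CD8 genes higher. Since lymphocytes of other kinds also express GIMAP genes, these levels are set beside the results, and their part in them was not tested.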

How the data were processed

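The deposited table holds a score per gene for 8 libraries: the authors trimmed reads with Trimmomatic (0.36), mapped them to mm10 with STAR (2.5.3), counted them with HTSeq (0.9.1), scaled each library to 20 M and rounded up. Column totals were 19963628 to 20164600. The annotation release was not given in the sources used here. Columns were grouped by their names, which carry no replicate number. Reads per library were recovered from the step between low values (1 read), and the floor of 3 reads was 1.80 to 31.3 scaled reads. For the deepest library 1 read is worth under 1, so its depth is less certain.

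The 4131 rows with clone-derived names were left out, and 97 names stood on several rows, of which the largest kept the name. Genes that reached 60 in 2 libraries or more (12816) entered limma 3.58.1 in R 4.3.3 (trended prior, 12.3 prior degrees of freedom) on log2(value + 5), with 4 group coefficients and all 8 libraries, two-sided, with Benjamini-Hochberg adjustment within each comparison. The script was tested on simulated data. The genes named are all members, genes of the lists, the cluster's neighbours and the 5 most alike. Positions and lengths were taken from GENCODE M21, which holds 99.68% of the identifiers, and promoters from RefSeq. Alternatives tried were pseudocounts of 1 and 20, no minimum, a mean of at least 60, median-of-ratios factors, the compared groups alone, limma-voom on recovered reads, other thresholds, other gene lengths and each library left out. The length of unshared exon bases was added after the overlaps had been seen. The members, gene lists and tests were chosen with earlier results of these data known.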

Additional observations from a re-analysis of the deposited data

Results flagged for a closer look

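Bcl2 is given here because its response to CD70Tg differed between the subsets: the log2 change in Tregs minus that in Tconvs was -1.44 ± 0.16 SE (limma adjusted p = 2.6e-04). Both CD70Tg Treg libraries were below both controls and both CD70Tg Tconv libraries above both controls. The adjusted p lay between 1.8e-04 and 0.0649 over 14 alternatives, the highest being that with no minimum value. No GIMAP gene passed this test, and groups of 2 libraries are too small for the test of single outlying samples.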

How the results depend on the processing

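No paired analysis was possible because the columns of the table carry no replicate numbers, and the numbered sample titles could not be matched to single columns by name. Of 40 pairs of a member and a comparison, 24 kept their direction and their side of an adjusted p of 0.05 in all alternatives to the fit, other thresholds not counted, 5 lost a call, 2 gained one and 9 changed sign, and none of the 11 that passed changed sign. The count of members higher in CD70Tg Tregs, 2, became 0 with no minimum value, 1 with median-of-ratios factors, 1 at an adjusted p under 0.01, 0 with a log2 change over 1 as well, and 1 to 2 with single libraries left out. That for Tregs against Tconvs in control mice, 4 higher and 0 lower, became 1 higher with a log2 change over 1, 3 higher with median-of-ratios factors and 1 lower with limma-voom, and 3 to 4 higher and 0 to 1 lower with single libraries left out. In CD70Tg mice, 4 higher became 0 with a log2 change over 1, 3 at an adjusted p under 0.01 or with no minimum value, and 2 to 4 with single libraries left out. With limma-voom there were 4 as well, Gimap4 being gained and Gimap5 lost.

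The sign changes were of values that had not passed, between -0.27 (Gimap5, difference between the responses) and 0.14 on the log2 scale, and their cause was not tested. For Gimap9 in Tregs the log2 change was 0.010 with median-of-ratios factors and -0.11 to 0.050 with libraries left out, and for Gimap5 in Tconvs it was -0.13 to 0.42 with libraries left out. For the difference between the responses, median-of-ratios factors gave 0.014 for Gimap1 and 0.073 for Gimap3, limma-voom gave -0.0094 for Gimap8, and leaving out libraries gave -0.19 to 0.063 for Gimap1, -0.075 to 0.060 for Gimap3, -0.55 to 0.0013 for Gimap5 and -0.079 to 0.084 for Gimap8. For the subsets in control mice, Gimap4 was at -0.059 with median-of-ratios factors and at -0.014 to 0.043 with libraries left out, and Gimap9 at -0.095 to 0.067. In CD70Tg mice, Gimap1 was at -0.0042 with limma-voom and at -0.11 to 0.15 with libraries left out. With limma-voom the median of all genes for the difference between the responses was at -0.10.

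A lone library left in a group is assumed to vary like the others. With 2 libraries a group and 1.91 M to 4.57 M reads in Tregs, the 95% intervals of single members reached 0.239 to 0.32 to either side on the log2 scale for CD70Tg against control. A call needs an adjusted p under 0.05, so that changes somewhat larger than this could be missed too.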

Other observations

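Inside the GIMAP cluster, a pair of long intergenic non-coding RNAs between Gimap5 and Gimap3 was higher in Tregs than in Tconvs of control mice. 4833403J16Rik (chr6:48755338-48756368, forward strand) was at 119 and 105 scaled reads in control Tconvs and at 360 and 316 in control Tregs, a log2 difference of 1.55 (limma adjusted p = 6.3e-05). Gm44226 (chr6:48754230-48755986, reverse strand) was at 161 and 193 against 428 and 478, a difference of 1.33 (limma adjusted p = 1.0e-04). The transcripts overlap on opposite strands, so that their reads cannot be told apart if the counting did not use the strand. Both calls held in all 15 alternatives. In CD70Tg mice Gm44226 was at 176 and 183 in Tconvs and at 460 and 408 in Tregs, and 4833403J16Rik was at 145 and 145 in Tconvs and at 304 and 316 in Tregs, and neither passed for CD70Tg in either subset.

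Of the 5 annotated genes on each side of the cluster, 5 were tested (Repin1, Zfp775, AI854703, Tmem176b and Tmem176a), and none passed for CD70Tg in Tregs or Tconvs with limma. At an unadjusted p under 0.05 there was 1 higher in Tregs and 2 higher in Tconvs, and limma-voom called 0 in Tregs and 2 higher and 1 lower in Tconvs. Tmem176b came closest, at 157 and 160 scaled reads in control and 243 and 362 in CD70Tg Tconvs (log2 0.88, limma adjusted p = 0.0529). Zfp775 was lower in Tregs than in Tconvs of control mice (log2 -0.81, limma adjusted p = 0.0170).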
